A study of Mus musculus with 4 samples.

Results

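The Polycomb complex genes considered here were Ezh1, Ezh2, Eed, Suz12 and Jarid2 of Polycomb repressive complex 2 (PRC2) and Rnf2, Ring1, Bmi1, Pcgf6 and Cbx2 of Polycomb repressive complex 1 (PRC1). They were taken by gene symbol, and all 10 were found among the 30049 Ensembl genes of the deposited table. The study compared wild type mouse embryos of the cross BDF1*BDF1 F2 at the 2-cell stage. Zygotes were taken 18 h after human chorionic gonadotropin from superovulated females of 8 to 12 weeks, and they were grown for 24 h in KSOM, an embryo culture medium, either plain (control) or with 2% dimethyl sulfoxide (DMSO). RNA-seq libraries were made from lysed embryos, 50 being collected per group, and each group has 2 libraries, numbered replicate 1 and 2. No source says whether the libraries of a group came from separate cultures, so the p-values below measure the spread between libraries, which may be technical. Values are in TPM, a unit of transcript abundance that gives each gene's length-corrected share of its library, so that levels can be set beside each other between genes. The read depth behind them is unknown. As a share, TPM cannot show a change in total RNA, nor tell fewer cells expressing a gene from less of its RNA per cell.

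Polycomb proteins keep genes silent by marking histones. PRC2 methylates histone H3 through the enzymes EZH1 or EZH2, held by the scaffold SUZ12 and by EED, which binds the finished mark, while JARID2 is an accessory subunit. PRC1 attaches ubiquitin to histone H2A through RNF2 (also called RING1B) or RING1 (RING1A), paired with one of the PCGF proteins, among them BMI1 and PCGF6, and in the canonical form with a CBX protein such as CBX2, which reads the mark of PRC2. In the oocyte and early embryo, Polycomb marks inherited from the mother keep some genes and imprinted loci silent.

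RNA of Rnf2 fell in DMSO-treated embryos to about 0.375 of the control level on the log2(TPM + 1) scale, whereas no PRC2 member was called changed and the other PRC1 members tested were not called either. Of the 10 genes, 9 had a mean of 1 TPM or more and were tested with limma, a linear model across all genes that shares information on variance, on log2(TPM + 1). With Benjamini-Hochberg adjustment over 12038 genes and a threshold of 0.05, limma called 1 of these 9, lower, and 0 higher, and 2 had an unadjusted p-value under 0.05. Over all genes tested 20.5% were called, 14.1% lower and 6.42% higher, and 40.2% had an unadjusted p-value under 0.05, so the share of Polycomb members called was not above the background. The median log2 fold change was -0.24 over the 9 genes and -0.09 over all genes tested. Of all genes called, 31.3% were higher with the values as deposited and 49.0% with quantile normalization, so directions depend in part on the scaling between libraries. An exact permutation test of 2 libraries against 2 cannot give a p-value below 0.333.

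**Figure D1:**
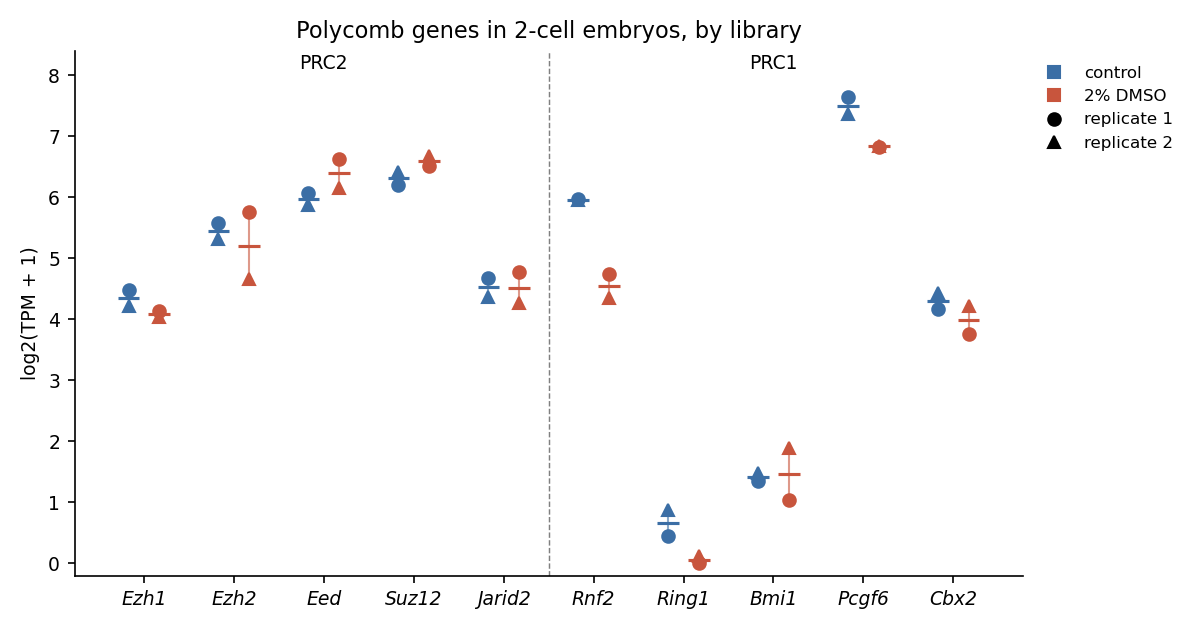
Levels of the 10 Polycomb genes as log2(TPM + 1) in each library, with PRC2 genes to the left and PRC1 genes to the right, circles for replicate 1, triangles for replicate 2 and a bar for the group mean of 2 libraries. Rnf2 is at 61.6 and 61.0 TPM in the controls, as against 25.7 and 19.5 TPM with DMSO, whereas the groups overlap for Ezh2, Jarid2, Bmi1 and Cbx2.

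Rnf2 (ENSMUSG00000026484, chromosome 1 of GRCm38 from 151458004 to 151500955, minus strand), the main ubiquitin ligase of PRC1, was at 61.6 and 61.0 TPM in control replicates 1 and 2 and at 25.7 and 19.5 TPM in DMSO replicates 1 and 2. Both DMSO libraries lay well below both control libraries, which differed by less than 1 TPM. The log2 fold change was -1.41 (standard error, SE, 0.28, 95% interval -2.08 to -0.75, limma adjusted p = 0.025). The gene was called lower under every other scaling, pseudocount and variance model tried, with log2 fold changes of -1.45 to -1.18. It was not called without the filter on low values (limma adjusted p = 0.102) or when a library was left out. The log2 fold change in limma was then -1.41 without control replicate 1 (adjusted p = 0.108), -1.42 without control replicate 2 (adjusted p = 0.172), -1.61 without DMSO replicate 1 (adjusted p = 0.0865) and -1.22 without DMSO replicate 2 (adjusted p = 0.0505), each in the same direction. In those fits the lone library of a group was assumed to vary like the other group. Of the 31-base words in Rnf2 transcripts 3.06% also occur in other genes, all of them in Trmt1l.

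Ring1 (ENSMUSG00000024325, chromosome 17 from 34020792 to 34024680), the paralogue of Rnf2, was hardly detected. It was listed at 0.368 and 0.831 TPM in the controls, as against 0 and 0.0883 TPM with DMSO, and with a mean under 1 TPM it was not tested. Rnf2 therefore made up 99.4% and 98.7% of the summed TPM of the pair in control embryos and 100% and 99.5% in DMSO-treated embryos. The log2 ratio of Rnf2 to Ring1, each with 1 TPM added, was 5.30 ± 0.31 (SD, n = 2) in control and 4.49 ± 0.36 (SD, n = 2) in DMSO-treated embryos, a difference of -0.81 (exact permutation p = 0.333, two-sided, the smallest possible). With 0.1 TPM added the difference was 0.82. The values of Ring1 lie below 1 TPM in every library and below 0.1 TPM in both DMSO libraries. The sign thus depended on the amount added, and no direction can be read from this ratio.

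Pcgf6 (ENSMUSG00000025050, chromosome 19 from 47033617 to 47050906), the PCGF protein of a variant PRC1 that also holds MGA and MAX, was the most abundant of the 10 genes. It stood at 198 and 165 TPM in the controls, as against 113 and 114 TPM with DMSO, so the groups did not overlap. The log2 fold change was -0.67 (SE 0.25, 95% interval -1.26 to -0.07) and did not pass the threshold (limma adjusted p = 0.0961). Under quantile normalization it was -0.37. The unadjusted limma p of 0.0331 was then 0.184, and it was 0.0616 without mitochondrial genes and 0.061 without a variance trend. Only with the replicate number as a block was Pcgf6 called (limma adjusted p = 0.0274). Bmi1 (ENSMUSG00000026739), which encodes PCGF4 of canonical PRC1, was low, at 1.54 and 1.78 TPM in control and 1.05 and 2.72 TPM in DMSO-treated embryos. The DMSO libraries lay on either side of the control libraries, with a log2 fold change of 0.05 (95% interval -0.92 to 1.03, limma adjusted p = 0.929). Its level is uncertain, since 28.2% of its 31-base words are shared, most of them with Gm5946. Cbx2 (ENSMUSG00000025577) was at 17.1 and 20.6 TPM in control and at 12.5 and 17.7 TPM in DMSO-treated embryos. The groups overlapped, and the log2 fold change of -0.31 (95% interval -1.06 to 0.43) was not called (limma adjusted p = 0.47). With a library left out it ran from -0.55 to -0.08.

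The promoters of Rnf2, Ring1 and Pcgf6, the PRC1 members whose control and DMSO libraries did not overlap, are shown as the 250 bases before the RefSeq transcription start, 5′ to 3′ on the gene's strand, with CG dinucleotides in capitals. A lack of overlap was also found for 69.8% of all genes tested. Ring1, under 1 TPM in every library, was not tested, and Pcgf6 was not called. CG-rich promoters are the kind to which Polycomb complexes are recruited. The windows on GRCm38.p6 are chr1:151500992-151501241 for Rnf2, chr17:34024681-34024930 for Ring1 and chr19:47050907-47051156 for Pcgf6, all on the minus strand.
Rnf2: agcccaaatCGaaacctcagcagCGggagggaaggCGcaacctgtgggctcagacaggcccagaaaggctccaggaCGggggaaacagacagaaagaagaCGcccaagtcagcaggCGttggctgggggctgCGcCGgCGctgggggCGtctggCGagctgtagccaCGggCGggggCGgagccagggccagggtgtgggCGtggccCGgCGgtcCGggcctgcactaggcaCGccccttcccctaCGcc
Ring1: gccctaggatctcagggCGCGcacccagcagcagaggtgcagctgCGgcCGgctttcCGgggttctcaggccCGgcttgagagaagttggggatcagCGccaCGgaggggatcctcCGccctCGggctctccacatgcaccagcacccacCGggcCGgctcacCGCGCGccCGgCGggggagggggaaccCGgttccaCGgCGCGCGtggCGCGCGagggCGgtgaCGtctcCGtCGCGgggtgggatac
Pcgf6: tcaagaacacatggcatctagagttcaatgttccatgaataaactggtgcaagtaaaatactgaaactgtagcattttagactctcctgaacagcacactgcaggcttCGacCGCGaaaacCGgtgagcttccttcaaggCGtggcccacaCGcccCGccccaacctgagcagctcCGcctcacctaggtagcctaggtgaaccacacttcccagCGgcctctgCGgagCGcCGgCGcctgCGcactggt
The windows hold 20, 30 and 14 CG dinucleotides for Rnf2, Ring1 and Pcgf6, and 17.9%, 5.94% and 29.4% of the 32851 RefSeq windows of this length hold as many or more, the median being 6. RefSeq windows were matched for 9 of the 10 genes (Cbx2 was not matched), and their counts ran from 12 for Eed to 37 for Suz12. Ring1, with the lower level, thus has the richer promoter of the RING pair. The E-box CACGTG, the palindromic word bound by MAX with its partners, was found in the window of Bmi1 and not in those of the other genes matched, and 6.02% of all windows hold it.

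**Figure D2:**
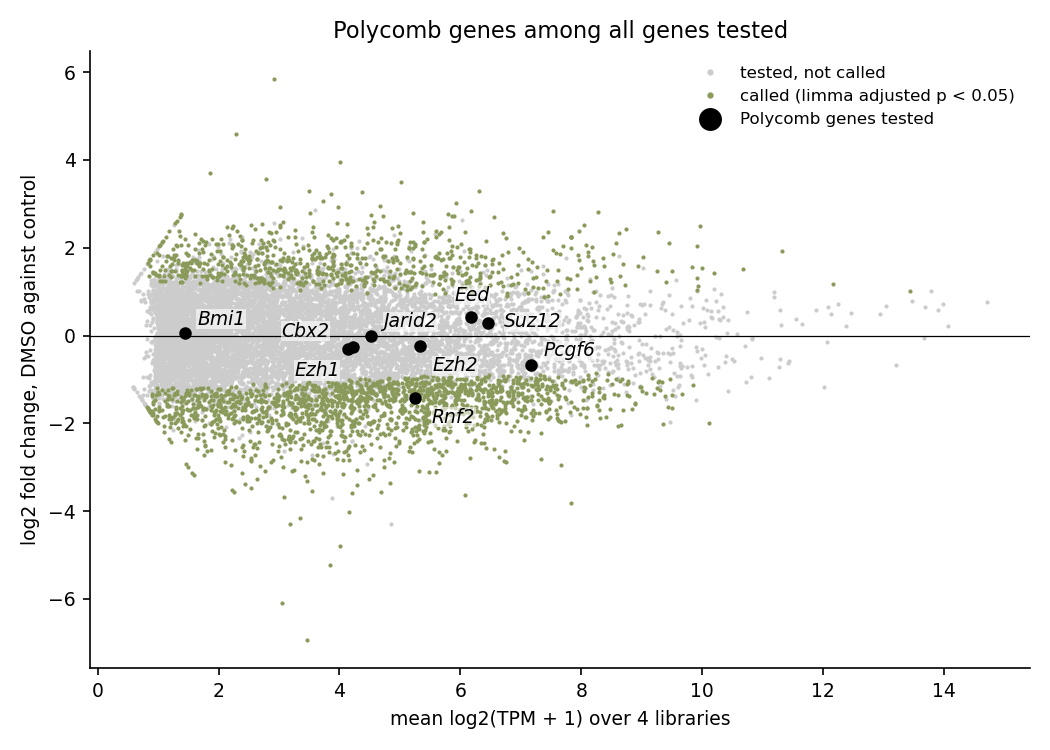
Log2 fold change of DMSO against control plotted over the mean log2(TPM + 1) of 4 libraries for the 12038 genes tested, with called genes in green and the 9 Polycomb genes tested in black. Rnf2, at -1.41, lies among the called genes, and the other Polycomb genes lie between -0.67 and 0.42 among the genes not called.

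None of the 5 PRC2 members was called changed. Suz12 (ENSMUSG00000017548, chromosome 11 from 79993106 to 80034123) was at 72.4 and 84.4 TPM in control and at 90.1 and 101 TPM in DMSO-treated embryos. Eed (ENSMUSG00000030619, chromosome 7 from 89954654 to 89980983) was at 66.4 and 57.6 TPM in control and at 98.1 and 70.1 TPM in DMSO-treated embryos. For both genes each DMSO library was above each control library, yet the differences were small against the spread. The log2 fold change was 0.28 for Suz12 (95% interval -0.32 to 0.89, limma adjusted p = 0.424) and 0.42 for Eed (95% interval -0.26 to 1.10, limma adjusted p = 0.301). With a library left out it ran from 0.18 to 0.39 for Suz12 and from 0.18 to 0.66 for Eed. Under quantile normalization it was 0.58 for Suz12 and 0.71 for Eed (limma adjusted p = 0.148 and 0.0984). A separation of both DMSO libraries from both control libraries is common in these data. The groups did not overlap in TPM for 69.8% of the genes tested (lower in 38.7%, higher in 31.1%), and for 5 of the 9 Polycomb genes tested (3 lower, 2 higher).

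Of the alternative catalytic subunits, Ezh2 (ENSMUSG00000029687, chromosome 6 from 47530139 to 47595341) was at 46.8 and 38.9 TPM in the controls, as against 53.0 and 24.3 TPM with DMSO. DMSO replicate 1 was the highest and DMSO replicate 2 the lowest of the 4 libraries. The log2 fold change was -0.24 (95% interval -1.20 to 0.72, limma adjusted p = 0.671), and its sign rested on DMSO replicate 2, without which it was 0.31. Ezh1 (ENSMUSG00000006920, chromosome 11 from 101191115 to 101226463), usually the form of resting cells, was at 21.2 and 17.7 TPM in control and at 16.6 and 15.4 TPM in DMSO-treated embryos. Its libraries did not overlap, but the log2 fold change of -0.26 was within the error (95% interval -0.94 to 0.42, limma adjusted p = 0.514). Jarid2 (ENSMUSG00000038518) was at 24.6 and 19.6 TPM in control and at 26.4 and 18.2 TPM in DMSO-treated embryos. The DMSO libraries enclosed the control libraries, and the log2 fold change was -0.0040 (95% interval -0.76 to 0.75, limma adjusted p = 0.993). The intervals of the 5 PRC2 members reach from -1.20 (Ezh2) to 1.10 (Eed) on the log2 scale, so a lack of a call does not show that their levels were equal.

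In control embryos the order of the mean levels was Pcgf6 (181 ± 23.4 TPM, SD, n = 2), Suz12 (78.4 ± 8.47 TPM), Eed (62.0 ± 6.27 TPM), Rnf2 (61.3 ± 0.427 TPM), Ezh2 (42.8 ± 5.57 TPM), Jarid2 (22.1 ± 3.54 TPM), Ezh1 (19.4 ± 2.49 TPM), Cbx2 (18.8 ± 2.47 TPM), Bmi1 (1.66 ± 0.167 TPM) and Ring1 (0.6 ± 0.327 TPM). Neighbours in this order had overlapping libraries for Eed and Rnf2, for Jarid2 and Ezh1 and for Ezh1 and Cbx2. In DMSO-treated embryos Rnf2 (22.6 ± 4.42 TPM, SD, n = 2) stood below Ezh2 (38.6 ± 20.3 TPM) and beside Jarid2 (22.3 ± 5.77 TPM), and its libraries overlapped with those of both. The other genes kept their relative order, with Pcgf6 (113 ± 0.861 TPM) still highest. Among them, libraries overlapped for Suz12 (95.6 ± 7.76 TPM) and Eed (84.1 ± 19.9 TPM), for Ezh2 and Jarid2 and for Ezh1 and Cbx2.

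A TPM ratio within a library is left unchanged by a single scaling factor per library, though not by quantile normalization, and with 1 TPM added it is so only nearly. The TPM ratio of Ezh2 to Ezh1 was 2.21 and 2.20 in the controls, as against 3.19 and 1.57 with DMSO. The log2 ratio with 1 TPM added was 1.10 ± 0.01 (SD, n = 2) in control and 1.12 ± 0.70 (SD, n = 2) in DMSO-treated embryos, a difference of 0.02 (exact permutation p = 1, two-sided). The balance of the pair was thus nearly the same in both control libraries and far apart in the DMSO libraries. Rnf2 stood at 0.927 and 1.06 of the TPM of Eed in control and at 0.262 and 0.278 in DMSO-treated embryos. Against Suz12 it was at 0.85 and 0.723 in control and at 0.285 and 0.192 in DMSO-treated embryos. The log2 ratios, with 1 TPM added, differed by -1.83 for Rnf2 to Eed, by -1.70 for Rnf2 to Suz12, by -1.17 for Rnf2 to Ezh2 and by -0.75 for Rnf2 to Pcgf6 (exact permutation p = 0.333 for each, two-sided, the smallest possible). These ratios were chosen after the values had been seen. They are given as a description.

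Of a wider list of Polycomb subunits, partners and erasers of the marks, which includes the members, 66 genes were in the table and 57 were tested. limma called 10 of them, 7 lower and 3 higher, which is 17.5% beside the background of 20.5%. The median log2 fold change was -0.04, beside -0.09 over all genes tested. The genes called lower were Rnf2, the histone-binding Rbbp4, the PRC2 accessory subunit Mtf2, the PCGF6 partner Mga, the deubiquitinase cofactor Asxl2, and the histone H2A deubiquitinases Usp16 and Mysm1. The genes called higher were the chromodomain gene Cbx7, Scmh1 of canonical PRC1, and Max. Under quantile normalization 3 were called lower and 5 higher, beside 1121 lower and 1076 higher of all genes tested (18.3% called). With TPM rescaled without mitochondrially encoded genes 3 were called lower and 4 higher, beside 1315 and 884 of all genes tested (18.3% called). Without control replicate 1, control replicate 2 or DMSO replicate 1 limma called 0 of the 57 genes and 0 of all 12038 (unadjusted p under 0.05 for 13, 11 and 10 of the 57), and without DMSO replicate 2 it called 3, which were Max, Mysm1 and Sfmbt1, beside 1883 (15.6%) of all genes. Sfmbt1, named here because of that call and after its values were seen, was at 10.3 and 7.50 TPM in control and at 43.2 and 6.18 TPM in DMSO-treated embryos, so that its call rested on DMSO replicate 1.

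**Figure D3:**
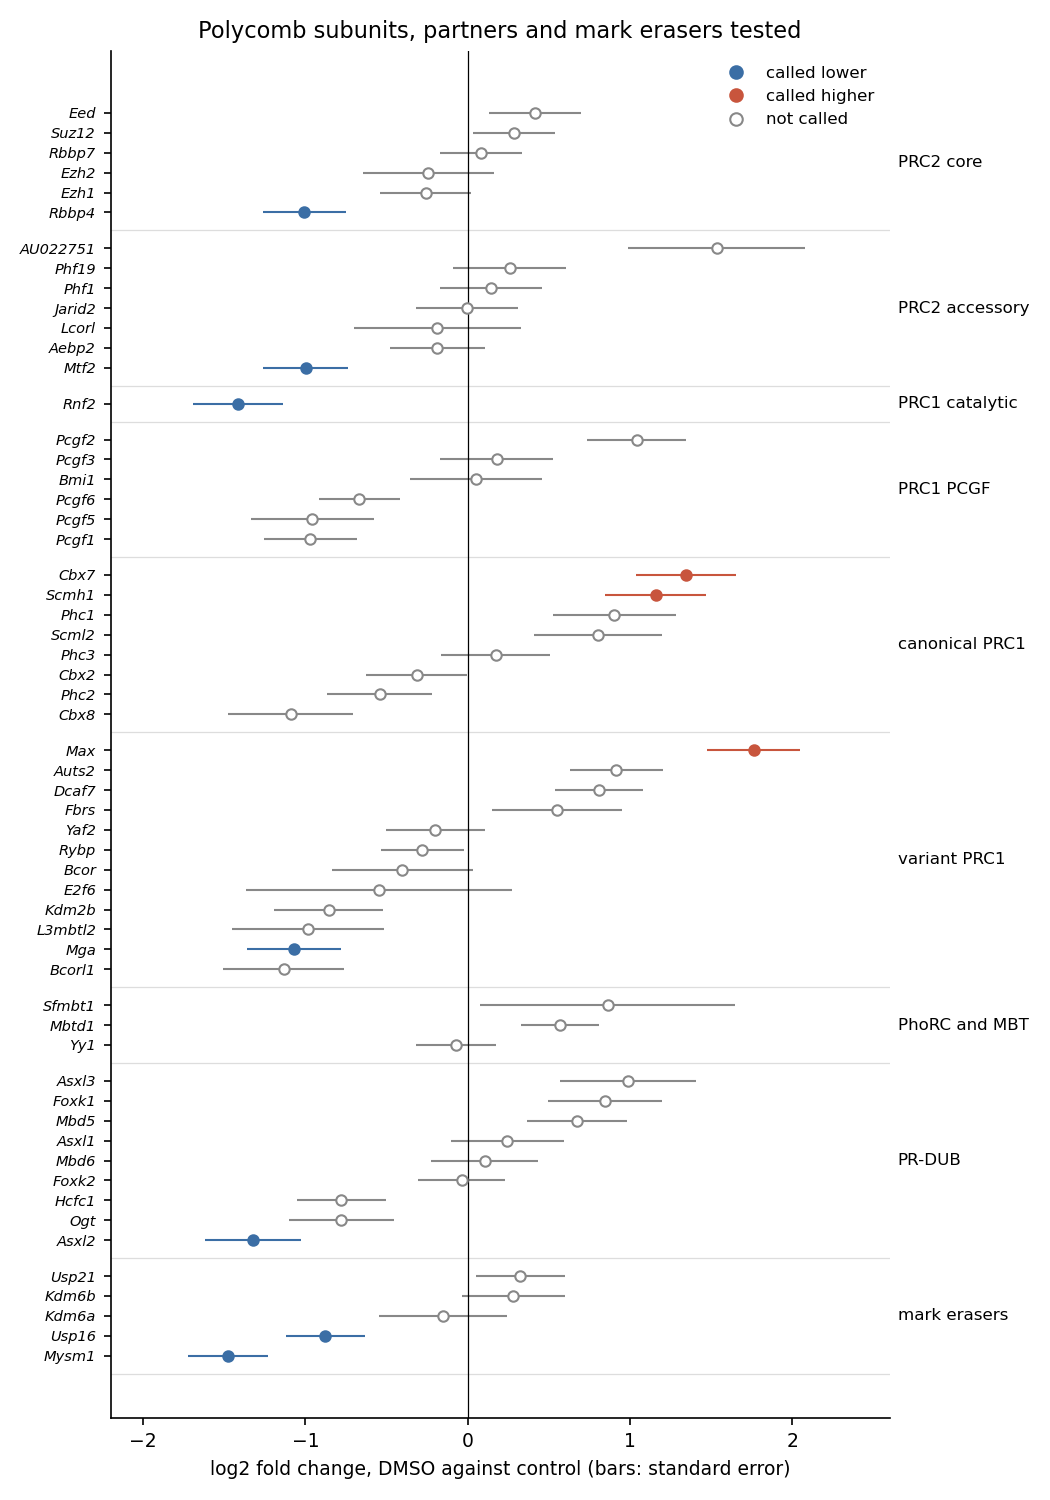
Log2 fold change of DMSO against control with its standard error (bars, limma, 2 libraries per group) for the 57 genes of the wider Polycomb list that were tested, grouped by complex. The 7 genes called lower and the 3 called higher are filled, and they are spread over 7 of the 9 groups.

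Among the other PRC2 genes, Rbbp4 (ENSMUSG00000057236), a histone-binding protein shared with other complexes, was at 64.1 and 64.8 TPM in control and at 30.1 and 33.2 TPM in DMSO-treated embryos, with a log2 fold change of -1.01 (SE 0.25, limma adjusted p = 0.04). Its paralogue Rbbp7 was at 199 and 199.6 TPM in control and at 236 and 188 TPM in DMSO-treated embryos and was not called (limma adjusted p = 0.825). Of the words of Rbbp4 22.0% and of those of Rbbp7 16.5% are shared with other genes. Mtf2 (ENSMUSG00000029267), which helps to bring PRC2 to CG-rich DNA, fell from 237 and 214 TPM to 98.2 and 128 TPM, with a log2 fold change of -0.997 (SE 0.26, limma adjusted p = 0.0429). The calls of Rbbp4 and Mtf2 were lost under quantile normalization (limma adjusted p = 0.0826 and 0.0973), and their log2 fold changes were then -0.74 and -0.74. They were also lost with TPM rescaled without mitochondrial genes (0.0541 and 0.0612) and with a variance model without a trend (0.0573 and 0.0663), and that of Mtf2 with median-ratio scaling (0.0538). AU022751 (ENSMUSG00000073294, chromosome X from 6081219 to 6083419), named Ezhip in RefSeq and known as an inhibitor of PRC2 in germ cells, had the highest mean level of the PRC2 genes listed in both groups. It was at 513 and 182 TPM in control and at 1247 and 631 TPM in DMSO-treated embryos, and in control replicate 2 it stood below Mtf2 and Rbbp7. Both DMSO libraries exceeded both control libraries, but the spread within groups was wide, and the log2 fold change of 1.53 (SE 0.54) was not called (limma adjusted p = 0.0855). In both groups replicate 1 was the higher, and with the replicate number as a block the change was called (SE 0.17, limma adjusted p = 0.00287). Its size depended on single libraries, at 2.28 without control replicate 1, 0.79 without control replicate 2, 1.04 without DMSO replicate 1 and 2.02 without DMSO replicate 2, and it was called in none of these fits.

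The PCGF proteins sort PRC1 into its forms, and most of their summed TPM came from Pcgf1 and Pcgf6. Pcgf1, of the form that KDM2B brings to CG-rich DNA, was at 453 and 650 TPM in control and at 248 and 309 TPM with DMSO. Its log2 fold change of -0.97 just missed the threshold (SE 0.29, limma adjusted p = 0.0559), and 23.1% of its words are shared with Gm8930. Pcgf2, the close paralogue of Bmi1, was at 6.12 and 8.26 TPM in control and at 15.9 and 15.5 TPM in DMSO-treated embryos, with a log2 fold change of 1.04 (SE 0.31, limma adjusted p = 0.0551). A filter at a mean of 5 TPM put both genes past the threshold (limma adjusted p = 0.0422 for Pcgf1 and 0.0445 for Pcgf2), as did rescaling without mitochondrial genes for Pcgf2 (0.048). The replicate number as a block put both past it too (limma adjusted p = 0.00576 and 0.0191). Pcgf5 (6.65 and 11.5 TPM in control, 4.77 and 3.42 TPM with DMSO) and Pcgf3 (3.79 and 4.87 TPM, 6.16 and 4.02 TPM) were not called. Summed over the 6 paralogues the PCGF level was 669 and 841 TPM in control and 388 and 448 TPM in DMSO-treated embryos. Pcgf2 took 0.916% and 0.982% of it in control and 4.10% and 3.46% in DMSO-treated embryos, while Pcgf6 took 29.6% and 19.6% in control and 29.0% and 25.4% with DMSO.

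**Figure D4:**
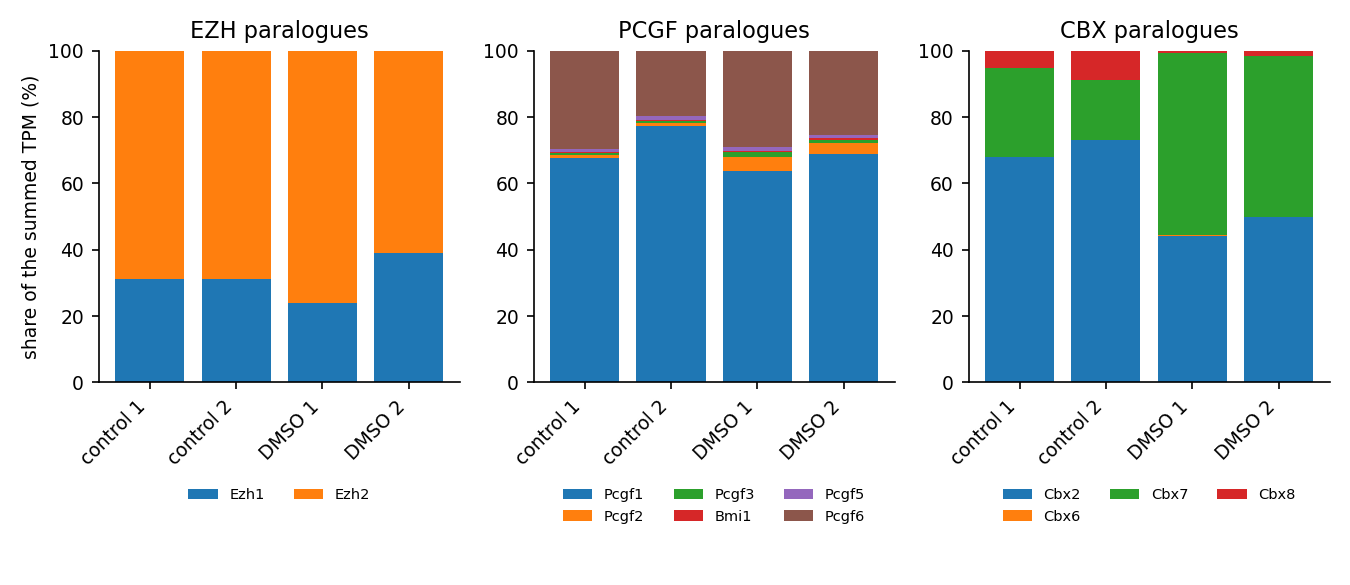
Share of each paralogue in the summed TPM of the EZH, PCGF and CBX genes named (y axis, percent) in each of the 4 libraries (x axis). The share of Cbx7 is 26.7% and 18.1% in the controls, as against 55.1% and 48.6% with DMSO, and the share of Ezh1 differs more between the DMSO libraries than between the groups.

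Of the CBX genes Cbx2, Cbx6, Cbx7 and Cbx8, Cbx7 rose in DMSO-treated embryos, while Cbx2, the most abundant of those listed in control, was not called. The summed level of Cbx2, Cbx6, Cbx7 and Cbx8 was 25.2 and 28.2 TPM in control and 28.3 and 35.5 TPM in DMSO-treated embryos. Cbx7 (ENSMUSG00000053411), whose protein reads the PRC2 mark, rose from 6.72 and 5.09 TPM to 15.6 and 17.3 TPM, with a log2 fold change of 1.34 (SE 0.31, limma adjusted p = 0.0325). Its share of this sum was 26.7% and 18.1% in control and 55.1% and 48.6% in DMSO-treated embryos, while that of Cbx2 was 67.9% and 73.0% in control and 44.2% and 49.7% in DMSO-treated embryos. The log2 ratio of Cbx7 to Cbx2, with 1 TPM added, differed by 1.66 (exact permutation p = 0.333, two-sided, the smallest possible, and chosen after the values had been seen). Cbx8 was at 1.33 and 2.50 TPM in control and at 0.175 and 0.534 TPM with DMSO and was not called (limma adjusted p = 0.0856), and Cbx6 was at 0.0573 TPM or less in every library. Scmh1 (ENSMUSG00000000085), a canonical PRC1 subunit, rose from 9.28 and 6.92 TPM to 17.3 and 21.2 TPM (log2 fold change 1.16, SE 0.31, limma adjusted p = 0.0451), a call lost without a trend in the variance model (0.0518). Of the polyhomeotic genes, which link PRC1 complexes to each other, Phc2 led with 103 and 118 TPM in control and 58.1 and 98.3 TPM with DMSO. Phc1 was at 5.10 and 3.11 TPM in control and at 10.4 and 6.70 TPM with DMSO, Phc3 stayed between 1.16 and 1.59 TPM, and none of the 3 was called. With the replicate number as a block Phc1 was called (limma adjusted p = 0.0308).

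Of the genes for partners of PCGF6, Max was called higher and Mga lower, while L3mbtl2, E2f6 and Rybp were tested and not called (limma adjusted p = 0.162, 0.637 and 0.432). Max (ENSMUSG00000059436), a DNA-binding partner of MGA and also of MYC, rose from 15.3 and 14.6 TPM to 61.8 and 45.6 TPM, with a log2 fold change of 1.76 (SE 0.29, limma adjusted p = 0.0208). Mga (ENSMUSG00000033943), the scaffold of that complex, fell from 72.6 and 52.0 TPM to 30.9 and 26.7 TPM, with a log2 fold change of -1.07 (SE 0.29, limma adjusted p = 0.0462). Mga was thus the more abundant of the pair in both control libraries and Max in both DMSO libraries, with TPM ratios of Max to Mga of 0.211 and 0.281 in control and 2.00 and 1.71 in DMSO-treated embryos. This ratio, of 2 genes called in opposite directions, was chosen after the values had been seen. Its log2 form, with 1 TPM added, gave an exact permutation p of 0.333 (two-sided, the smallest possible). Without the filter on low values neither was called (limma adjusted p = 0.102 for Max and 0.12 for Mga), and Mga was not called under quantile normalization either (limma adjusted p = 0.0737), nor with a pseudocount of 0.1 TPM (0.054), a variance model without a trend (0.0623) or TPM rescaled without mitochondrial genes (0.0587).

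The ubiquitin that RNF2 attaches to histone H2A is taken off by several enzymes. Mysm1 (ENSMUSG00000062627), a deubiquitinase of histone H2A, fell from 151 and 149 TPM to 55.3 and 51.3 TPM, with a log2 fold change of -1.48 (SE 0.24, limma adjusted p = 0.0209). Usp16 (ENSMUSG00000025616), another one, fell from 495 and 447 TPM to 237 and 276 TPM, with a log2 fold change of -0.88 (SE 0.24, limma adjusted p = 0.0488), a call lost under each of the 3 other scalings (limma adjusted p = 0.059 to 0.122), with a pseudocount of 0.1 TPM (0.053) and without a trend (0.0798). Asxl2 (ENSMUSG00000037486), a cofactor of the deubiquitinase BAP1, fell from 28.9 and 37.7 TPM to 11.5 and 13.8 TPM, with a log2 fold change of -1.32 (SE 0.30, limma adjusted p = 0.0315). Bap1 itself was listed at 0.196 and 0.177 TPM in control and at 0 in both DMSO libraries. Usp21 (35.5 and 27.8 TPM in control, 37.6 and 41.8 TPM with DMSO) was not called (limma adjusted p = 0.402). The demethylases that remove the PRC2 mark, Kdm6a (5.94 and 7.90 TPM in control, 8.48 and 4.26 TPM with DMSO) and Kdm6b (7.99 and 5.86 TPM, 8.84 and 8.25 TPM), were low and not called. Of the 5 erasers of either mark, Usp16, Mysm1, Usp21, Kdm6a and Kdm6b, 2 were thus called lower and 0 higher, beside 14.1% lower and 6.42% higher of all genes tested.

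**Figure D5:**
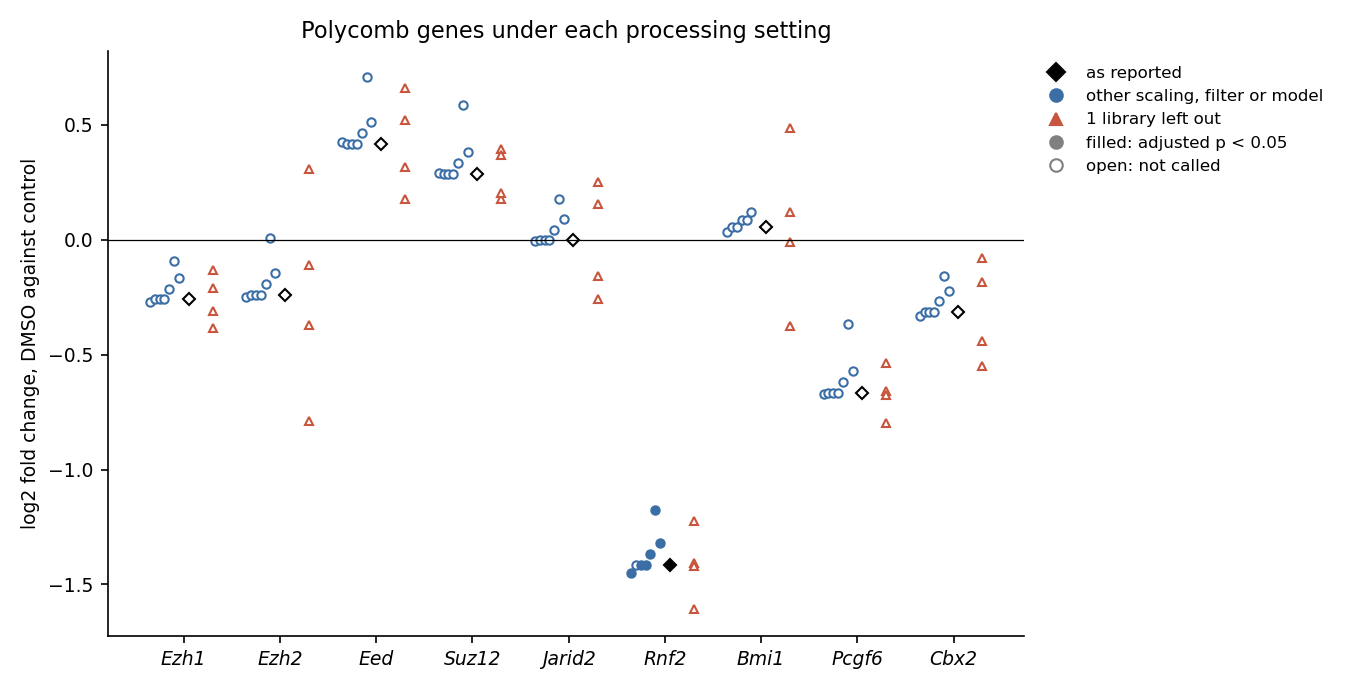
Log2 fold change of the 9 Polycomb genes tested as reported (diamonds), under 7 other settings of scaling, filter, pseudocount or variance model (circles) and with 1 library left out (triangles), filled where the limma adjusted p-value was under 0.05. Bmi1 has no value for the filter at a mean of 5 TPM, which it did not pass. Rnf2 lies between -1.61 and -1.18 throughout and is filled in the value reported and in 6 of the 7 other settings, but in none with a library left out.

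Genes that Polycomb is known to hold silent were mostly at or near 0. Of 38 Hox genes listed, 28 and 22 were above 0 in the controls, as against 27 and 25 with DMSO, yet only 1, 1, 2 and 2 were above 1 TPM. Hoxa7 (ENSMUSG00000038236) was the highest in every library, at 25.0 and 12.9 TPM in control and 61.5 and 33.5 TPM in DMSO-treated embryos (log2 fold change 1.29, SE 0.43, limma adjusted p = 0.076). It was called with the replicate number as a block (SE 0.21, limma adjusted p = 0.0060). Of its words 20.5% are shared, 19.4% with the antisense gene Hoxaas3, whose reads cannot be told apart from those of Hoxa7 without strand. Without Hoxa7 the Hox genes summed to 8.52 and 4.86 TPM in control and to 8.17 and 7.18 TPM in DMSO-treated embryos. Of the genes imprinted through the mark of PRC2, Gab1 (0.604 and 2.47 TPM in control, 0.466 and 1.64 TPM with DMSO) and Jade1 (4.85 and 2.66 TPM, 2.01 and 1.49 TPM) were tested and not called (limma adjusted p = 0.72 and 0.181), and Sfmbt2, Smoc1 and Slc38a4 were under 1 TPM in every library.

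Markers of the stage and of other cells were read in the same libraries. Of 10 genes marking the 2-cell stage the sum was 1170 and 950.0 TPM in control and 2511 and 1820 TPM in DMSO-treated embryos, led by Pramel7 in control and by Tcstv3 with DMSO, and of 9 tested 4 were called higher and 2 lower, beside 6.42% and 14.1% of all genes tested. The 2 called lower were Pramel6 (log2 fold change -2.45) and Pramel7 (-1.75), and the 4 called higher were Zfp352, Tcstv1, Tcstv3 and Gm8300. Of 10 oocyte genes the sum was 241 and 145 TPM in control and 791 and 457 TPM in DMSO-treated embryos. Bmp15 led them in every library and was the 1 gene of 9 tested that was called (higher, beside 6.42% of all genes tested), and the oocyte gene Nlrp5 was at 0.142 TPM or less throughout. The 9 oocyte genes tested went both ways, 6 with a log2 fold change above 0 and 3 below it. Those below were Zp3 (-0.42), Mos (-0.54) and Padi6 (-0.80), none of them called. The 10 cumulus cell genes summed to 2.07 and 0.971 TPM in control and to 2.58 and 2.28 TPM in DMSO-treated embryos, with Amh and Inhba at 0 in all libraries. None of these cumulus cell genes reached the mean of 1 TPM needed for a test. Much of their sum with DMSO was Cyp19a1, at 0.422 and 0.494 TPM in control and at 1.255 and 1.083 TPM with DMSO. The 10 sperm genes summed to 3.36 and 3.87 TPM in control and to 14.3 and 9.82 TPM in DMSO-treated embryos, most of it Prm2, and Prm2 was called higher, while Tnp2, Smcp and Acr were at 0 throughout. Tnp1 (0.281 and 0 TPM in control, 2.08 and 1.69 TPM with DMSO) passed the filter on low values only through the DMSO libraries, so its call is not counted. Mitochondrially encoded genes took 10.8% and 12.4% of the summed TPM in control and 15.3% and 21.7% in DMSO-treated embryos. The oocyte, 2-cell, cumulus cell, sperm and mitochondrial sums were thus higher in both DMSO libraries than in both control libraries, and their part in the differences of the Polycomb genes was not tested. The cumulus cell sums lay near the floor, and single oocyte and 2-cell genes went both ways. With TPM rescaled without the mitochondrial genes, the log2 fold change of Rnf2 was -1.32 (limma adjusted p = 0.0299).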

How the data were processed

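RNA-seq of control and DMSO-treated 2-cell embryos (2 libraries each) was pseudomapped by the authors with kallisto to Ensembl transcripts of GRCm38, and the TPM values they deposited were summed per gene with tximport (tool versions not given in the sources used here). The submitters' processing notes also name STAR, SAMtools, bedtools and mm10. TPM keeps no read depth, so the count test of the authors (DESeq2) was not run and the depth behind each value is unknown. The table holds 4 library columns, with a summed TPM of 768174 to 799166, and all were mapped to samples by their titles.

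Of 30049 Ensembl IDs 29668 were named from GENCODE M21 on GRCm38, which also gave the coordinates. Promoters are RefSeq windows on GRCm38.p6. Words of 31 bases shared between genes were counted in GENCODE transcripts. limma 3.58.1 in R 4.3.3 was fitted to log2(TPM + 1), with a trend in the variance, over the 12038 genes that averaged 1 TPM or more, with Benjamini-Hochberg adjustment and a threshold of 0.05. Fold changes are on the log2(TPM + 1) scale, which understates those of low genes. Ratios within libraries were compared by an exact two-sided permutation test, which cannot go below 0.333. Named were the 10 members, each wider-list gene called, the PCGF, CBX and PHC paralogues and other PRC2 core genes, the imprinted genes found in the deposited values and the highest Hox gene. AU022751, Bap1, Usp21, Kdm6a, Kdm6b, L3mbtl2, E2f6, Rybp and Sfmbt1 lie outside that rule and were chosen after their values were seen. The single genes named from the marker lists lie outside it too. A gene of the wider list is not reported here and enters no sum or count of that list. The members and lists were chosen with earlier results of these data known. Alternatives were a pseudocount of 0.1 TPM, no filter or one at 5 TPM, no variance trend, median-ratio, quantile and mitochondria-free scaling, the replicate number as a block, and leaving out each library. In simulated data with 12038 genes the fit recovered 47 of 100 genes changed 4-fold and 96 of 100 changed 16-fold, with 6 false calls, and called 0 genes when none were changed. The changed genes were drawn from the more abundant ones and were a far smaller share than was called here. The noise was independent between libraries, and both sizes exceed the change of any member tested. These figures therefore check the code and do not give the power or error rate of the real comparison.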

Additional observations from a re-analysis of the deposited data

How the results depend on the processing

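With 2 libraries per group and no known depth, most calls depend on the settings. limma called 2470 of all genes, 1 Polycomb member and 10 genes of the wider list. Without the filter on low values it called 0 of 22257 genes (5368 at an unadjusted p under 0.05), 0 of 10 members (3 at an unadjusted p under 0.05) and 0 of 66 wider-list genes (24 at an unadjusted p under 0.05), with more low genes entering the adjustment and the variance estimate. Without a trend in the variance 5 of 57 wider-list genes were called, beside 16.8% of all genes. Over fits that left out 1 library the counts ran from 0 to 1883 for all genes, from 0 to 0 for the members and from 0 to 3 for the wider list, with calls made only without DMSO replicate 2. In the fits with 0 calls among all genes the unadjusted p was under 0.05 for 3745 (without control replicate 1), 2602 (without control replicate 2) and 3078 genes (without DMSO replicate 1), and for the members it was so for 1 in each of the 4 fits.

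Some differences near 0 changed sign, and the cause was not tested. The log2 fold change of Ezh2 was 0.0050 under quantile normalization and ran from -0.79 to 0.31 with a library left out. That of Jarid2 was 0.042 under median-ratio scaling, 0.17 under quantile normalization and 0.089 with TPM rescaled without mitochondrial genes, and ran from -0.26 to 0.25. With a library left out that of Bmi1 ran from -0.38 to 0.48, of Pcgf3 from -0.078 to 0.43, of Rbbp7 from -0.085 to 0.25 and of the Ezh2 to Ezh1 ratio from -0.48 to 0.51. The Rnf2 to Ring1 difference, -0.81 as reported, was 0.82 with 0.1 TPM added and ran from -1.07 to -0.56 with a library left out. Over 28 genes, the alternatives that kept all libraries gave 220 values. Of these, 180 kept direction and side of the threshold, 27 fell short of it, 9 passed it and 4 changed sign. Only the 10 genes called as reported could fall short, so the 27 are theirs alone, and most of the 180 belong to genes not called. With a library left out, 7 of 112 values changed sign. Another scaling also moved the share of higher genes among all called, from 31.3% to 39.0% (median-ratio), 40.2% (without mitochondrial genes) and 49.0% (quantile), and the median change over all genes, as log2, from -0.09 to -0.05, -0.01 and 0.01.

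The groups share replicate numbers, which no source ties to a shared culture or day, and libraries with the same number deviated from the mean of their group with a correlation of r = 0.35 across 12038 genes, which are not independent. With the replicate number as a block limma called 5132 genes (42.6%, 2981 lower and 2151 higher), 2 members (Rnf2, adjusted p = 0.00508, and Pcgf6, adjusted p = 0.0274) and 25 wider-list genes (14 lower, 11 higher), among them AU022751 (log2 fold change 1.53, SE 0.17, adjusted p = 0.00287), Pcgf1 (0.00576), Pcgf2 (0.0191) and Phc1 (0.0308). The 25 include Cbx8, which passed the filter on low values only through the control libraries, so its call is not read. Outside that list the block called Hoxa7 (adjusted p = 0.0060), and 6 of the 9 oocyte genes tested, all higher, in place of 1. In this balanced design a block cannot change a difference of group means, so those of the Ezh2 to Ezh1 ratio (0.02) and the Rnf2 to Ring1 ratio (-0.81) are the same by construction.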
